A study of Homo sapiens with 15 samples.

Results

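The regions described here were highly methylated domains (HMDs) of HCT116 cells that no clone regained after a temporary loss of UHRF1. Autosomal base pairs were kept when they lay in an HMD in the Baseline domain list of all 3 shUHRF1 clones and outside the HMDs of their Recovery lists, and merged pieces of 5 kb or more were the members. This gave 5149 of the 48628 pieces of that length into which the clones' shared Baseline HMDs divided, and 88.6 Mb of 1509 Mb (5.87%). The members were thus selected on the methylation-based domain calls of the clones' Baseline and Recovery libraries. Every clone value of the members at Baseline or Recovery below is therefore a description without a test. Clone values were tested only for pieces chosen without the clone being measured. The shDNMT1 populations took no part in the choice.

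HCT116 is a human colorectal carcinoma line. All 15 libraries came from derivatives carrying a doxycycline (dox)-inducible shRNA, against UHRF1 in 3 clonally expanded lines (Cl.3, Cl.6 and Cl.9, each a single clone) and against DNMT1 in 2 bulk populations (R1 and R2). Baseline cells grew for 14 days without dox, Knockdown cells received 10 ng/mL for 14 days, and Recovery cells had 14 days with dox and 14 more without it, ending on day 28. Whole-genome bisulfite sequencing gave each library 309268341 to 577680690 reads over autosomal CpGs, with a median of 11 to 21 reads per CpG. The knockdown target and the origin of the cells (clone or bulk) changed together, so their parts in a difference between shUHRF1 and shDNMT1 cannot be told apart.

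DNMT1 copies CpG methylation onto the new DNA strand after replication, and UHRF1 binds hemimethylated CpGs and directs DNMT1 to them. In many cancer cells the genome is divided into HMDs and partially methylated domains (PMDs), and PMDs are mostly late replicating and poor in active genes. CpGs that are isolated and flanked by A or T (solo-WCGW CpGs) are known to lose methylation first in such domains.

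Some single CpGs of the longest members are shown first, because falls at neighbouring sites of 1 piece differed widely. Among CpGs with at least 10 reads in all 15 libraries, the site with the largest and the site with the smallest mean fall from Baseline to Recovery over the 3 clones is given for each of the 4 longest members. Sequences were read from the hg38 reference genome, plus strand, 5′ to 3′, and capitals mark the measured CpG. All coordinates are hg38.
Piece 1, largest fall, chr3:60851494-60851523: ttcattgaggggaaCGtctaacagaatgac
Piece 1, smallest fall, chr3:60856486-60856515: acgagcttcgtgctCGggagagaacattgc
Piece 2, largest fall, chr7:19310741-19310770: tcaattaatgactaCGtgttccctccagtt
Piece 2, smallest fall, chr7:19249042-19249071: cagcctgtttatccCGtgcaaaagatccac
Piece 3, largest fall, chr4:147241698-147241727: aatctctgtgaaaaCGtttgtttttaaaat
Piece 3, smallest fall, chr4:147247944-147247973: tggtagcttcatgcCGagagagtccatgtg
Piece 4, largest fall, chr4:84436579-84436608: ttataatataaaaaCGatttaacctgattc
Piece 4, smallest fall, chr4:84413285-84413314: cacacttataatccCGgcgctttgggaggc

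The CpG of piece 1 with the largest fall lay inside FHIT, 432 bp from its nearest CpG, with A and T at its sides. Its methylation level (mC, methylated reads divided by all reads) was 100.0%, 18.2% and 44.4% at Baseline, Knockdown and Recovery in Cl.3, 95.8%, 31.2% and 28.6% in Cl.6, and 94.1%, 3.85% and 6.06% in Cl.9. The same CpG went from 92.9% through 19% to 95% in R1 and from 94.7% through 8.33% to 85.0% in R2. So each clone ended at less than 50% at this site and both bulk populations at 85% or more.

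About 5 kb away, the CpG of piece 1 with the smallest fall had another CpG at 6 bp and 2 within 35 bp. It had 90.0%, 88.9% and 84.6% at Knockdown in Cl.3, Cl.6 and Cl.9, and 100.0%, 100.0% and 87.5% at Recovery. Over the 10 longest members, 9 of the 10 sites with the largest fall had A or T on both sides, and 2 of the 10 with the smallest fall did. In piece 5 the order was the opposite, since only the site with the smallest fall (chr4:85282555-85282584) had A or T on both sides. The sites printed rest on 10 to 42 reads per library and were picked for their values, so they illustrate the range and carry no test.

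The members were shorter than the 2 largest sets of other HMD pieces. Their median length was 12 kb (quartiles 7.62 and 20.1 kb), against 17.2 kb for the 21653 pieces restored in Cl.3 and Cl.6 only and 20.4 kb for the 14786 pieces restored in all 3 clones. The 4795 pieces restored in Cl.3 only were shorter than the members (median 10.9 kb), and the 2093 restored in Cl.6 only were longer (14.8 kb). The 1299 members of 20 kb or more held 54.8% of the length, and 34 exceeded 100 kb. At the length limit, the 100 longest pieces under 5 kb had 77.0%, 74.4% and 58.3% mC at Recovery in Cl.3, Cl.6 and Cl.9, and the 100 shortest members had 76.6%, 72.8% and 57.5%.

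Over all members together, every clone lost methylation at Knockdown and regained less than 50% of the loss. In Cl.3 mC was 86.7% at Baseline, 69.8% at Knockdown and 76.5% at Recovery. In Cl.6 it was 88%, 63.6% and 74.7%. In Cl.9 it was 84.5%, 45.6% and 58.7%. Cl.9 stood lowest at each stage, and its Recovery value lay below the Knockdown values of the other clones.

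As means over the clones, Baseline was 86.4% ± 1.81 and Recovery 70.0% ± 9.8 (SD, n = 3), and the regained share of the loss was 39.7% ± 5.94. Cl.3 regained 39.8%, Cl.6 45.6% and Cl.9 33.7%. Over all autosomal CpGs the shares were close to these, at 44.3%, 47.6% and 36.1%, so a regain under 50% was not particular to the members. The 95% Wilson interval of each pooled value spans at most 0.0271 points to either side and covers counting error only, since PCR copies of a fragment are not independent molecules.

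The bulk populations lost more in the members than any clone and regained nearly all of it. R1 had 86.2%, 43.9% and 84.6% at Baseline, Knockdown and Recovery, and R2 had 86.3%, 43.0% and 84.7%. R1 regained 96% of its loss and R2 96.3%. At Knockdown the members of Cl.9 and of both bulk populations stood within 3 points of each other (43.0% to 45.6%), while at Recovery Cl.9 had 58.7% and the bulk populations 84.6% and 84.7%.

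**Figure D1:**
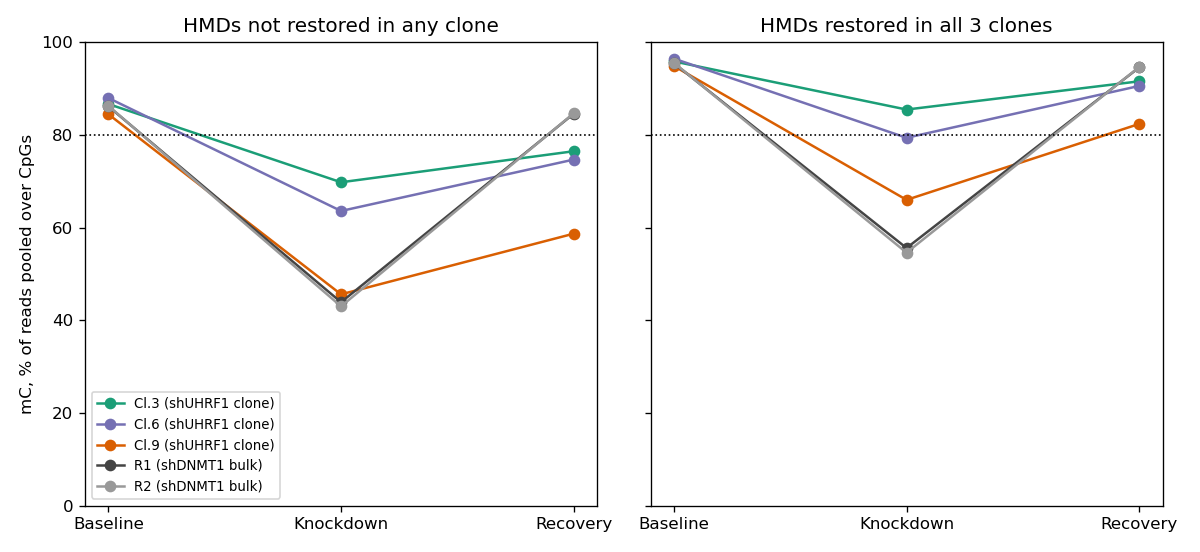
Methylation (mC, % of reads pooled over all CpGs; y axis) at Baseline, Knockdown and Recovery (x axis) in the 5 populations, each point being 1 library. The left panel shows the members and the right panel the HMDs restored in all 3 clones; the dotted line marks the 80% that the HMD definition required. In the left panel the clones end at 58.7% to 76.5% and the bulk populations at 84.6% and 84.7%.

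The pieces restored in all 3 clones are the natural comparison. They held 95.9%, 85.5% and 91.6% mC in Cl.3, 96.5%, 79.4% and 90.6% in Cl.6, and 94.9%, 66.0% and 82.4% in Cl.9 at the 3 stages, with regained shares of 58.1%, 65.5% and 56.8%. The pieces restored in Cl.3 and Cl.6 only regained 49.0%, 56.5% and 45.0%. The members therefore started lower, lost more in points and regained a smaller share in each clone. The Baseline and Recovery values come from the libraries that chose them, and the clones' Knockdown loss was not compared on another scale.

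In the bulk populations, where the choice used no value, the members also started lower. Their Baseline mC minus that of restored HMDs was -9.26 points, in R1 as in R2. From Baseline to Knockdown the members of R1 changed by -42.4 points and restored HMDs by -39.9 points, and in R2 the changes were -43.3 and -41.0 points. From Baseline to Recovery the members of R1 changed by -1.68 points and restored HMDs by -0.847 points, and in R2 the changes were -1.6 and -0.86 points. The difference of members minus restored HMDs was -2.5 and -2.34 points at Knockdown and -0.829 and -0.74 points at Recovery in R1 and R2, of 1 sign in both. With the choice made without Cl.9 it was -0.985 points at Knockdown on average. Against the pieces restored in Cl.3 and Cl.6 only, the mean difference was smaller, at -0.768 points at Knockdown and -0.38 points at Recovery. With 2 populations the exact two-sided sign-flip permutation test cannot go below p = 0.5, which each of the 3 comparisons gave.

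The scale of the comparison decided its direction. On a log2 scale of methylated over unmethylated reads, members minus restored HMDs turned positive in the bulk populations, with a mean of 1.09 at Knockdown and 0.0746 at Recovery, the opposite direction. Among pieces with a mean Baseline mC of 88 to 92% in the clones (1425 members and 161 restored pieces), the direction was the same on both scales, with more loss in the members. The difference was -6.41 points and -0.18 log2 units at Knockdown, and -0.82 points and -0.0894 log2 units at Recovery. The members still started lower in the bulk populations within the band, with a mean Baseline difference of -1.84 points and -0.298 log2 units. This band was chosen after seeing the data.

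Within that band the clones differed more widely between the sets. The members regained 39.7%, 45.5% and 36.4% of the loss in Cl.3, Cl.6 and Cl.9 and restored pieces 57.9%, 64.2% and 59.5%, values that again contain the choice. Across Baseline bands of 80 to 84%, 84 to 88% and 88 to 92% the members' regained share was 39.4%, 40.1% and 39.7% in Cl.3, 44.9%, 46.0% and 45.5% in Cl.6, and 30.0%, 33.5% and 36.4% in Cl.9. It was thus level in Cl.3 and Cl.6, and in Cl.9 it was higher in the higher bands.

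A choice that left out the clone being measured was possible. For each clone, HMDs shared by the Baseline lists of the other two were divided into pieces that were HMD in neither of their Recovery lists and pieces that were HMD in both. In Cl.3, left out, the first kind went from 87.1% to 77.7% and the second from 95.9% to 91.5% between Baseline and Recovery. In Cl.6 the values were 87.8% to 75% against 96.4% to 90.4%, and in Cl.9 83.0% to 56.6% against 92.2% to 75.8%.

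The Recovery change of the unrestored kind minus that of the restored kind was -4.99 points in Cl.3, -6.77 in Cl.6 and -10.1 in Cl.9 (exact two-sided sign-flip permutation test over 3 clones, p = 0.25, the smallest that 3 clones allow). Of the length of the unrestored kind, 40.1%, 30.4% and 0.227% was HMD at Recovery in the clone left out, against 99.8%, 99.6% and 39.5% of the restored kind. At Baseline 87.8%, 87.3% and 83.7% of the unrestored kind had been HMD there, against 99.8%, 99.9% and 99.1%. On the log2 scale the difference turned positive, at 0.00158 to 0.252, and among pieces with 88 to 92% at Baseline it was negative again, at -0.513 to -0.294 log2 units.

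**Figure D2:**
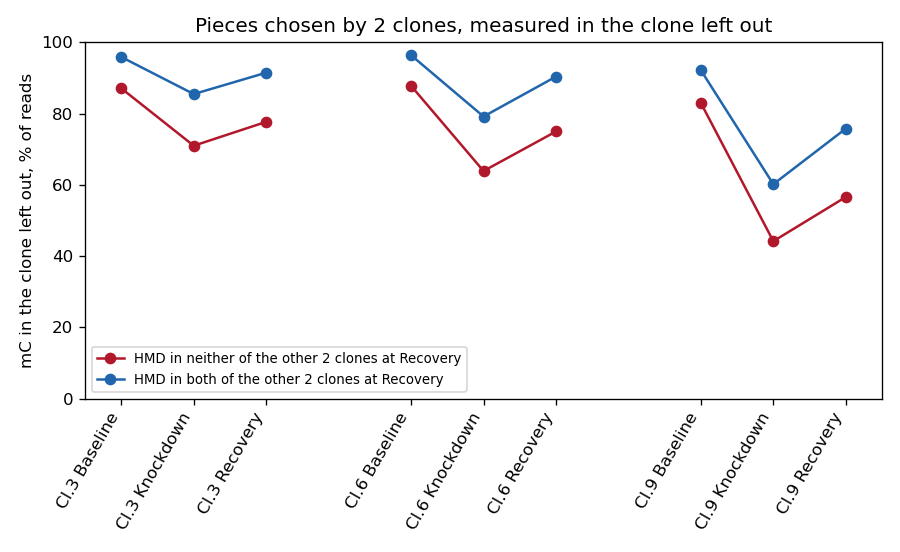
Methylation (% of reads; y axis) at the 3 stages in each clone when the other 2 clones chose the pieces (x axis, library). Red points are pieces that were HMD in neither choosing clone at Recovery and blue points pieces that were HMD in both; in Cl.9 the red points end at 56.6% and the blue points at 75.8%.

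The class the members took at Recovery differed among the clones. PMD calls covered 67% of their length in Cl.3, 70.1% in Cl.6 and 93.9% in Cl.9, and 32.5%, 29.3% and 5.1% had no class, meaning that the stretch between called domains had a mean under 80%. At Knockdown PMDs already covered 84.7%, 94.4% and 97.4%. Low-methylated regions (LMRs) are short stretches of intermediate methylation that are often regulatory elements. They covered 1.26% and 1.83% at Recovery in Cl.3 and Cl.6 but 17.5% in Cl.9. At Knockdown they covered 3.52%, 7.66% and 31.5% in Cl.3, Cl.6 and Cl.9, and such calls can lie inside PMDs. Whether those in the members were regulatory elements was not tested.

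In the bulk populations HMDs covered 72.3% (R1) and 77.5% (R2) of the members' length at Baseline and 58.1% and 59.6% at Recovery. PMDs covered 27.3% and 22.1% at Baseline and 41.1% and 39.5% at Recovery. By comparison, HMDs covered 100.0% of restored HMDs in R1 at Baseline and Recovery. Of the 5149 members, 2228 (43.3%) were mainly HMD at both stages in both bulk populations, 634 (12.3%) mainly PMD at both, and 327 (6.35%) changed from HMD to PMD in both.

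Members that stayed HMD in both bulk populations had higher mC in the clones than those that were PMD throughout, already at Baseline. At Baseline the former had 87.5%, 88.8% and 85.6% in Cl.3, Cl.6 and Cl.9, and the latter 84.8%, 86.5% and 82.3%. At Recovery the former had 77.4%, 75.4% and 60.8%, and the latter 75.2%, 74.1% and 55.7%. The 29 members that changed from PMD to HMD in both bulk populations had 75.5%, 73.6% and 57.0% at Recovery. In Cl.6 this was below the members that were PMD throughout. In R1 and R2 the 327 members that changed from HMD to PMD went from 86.6% to 84.4% and from 86.6% to 84.3%, so the new PMD calls accompanied a fall of about 2 points.

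**Figure D3:**
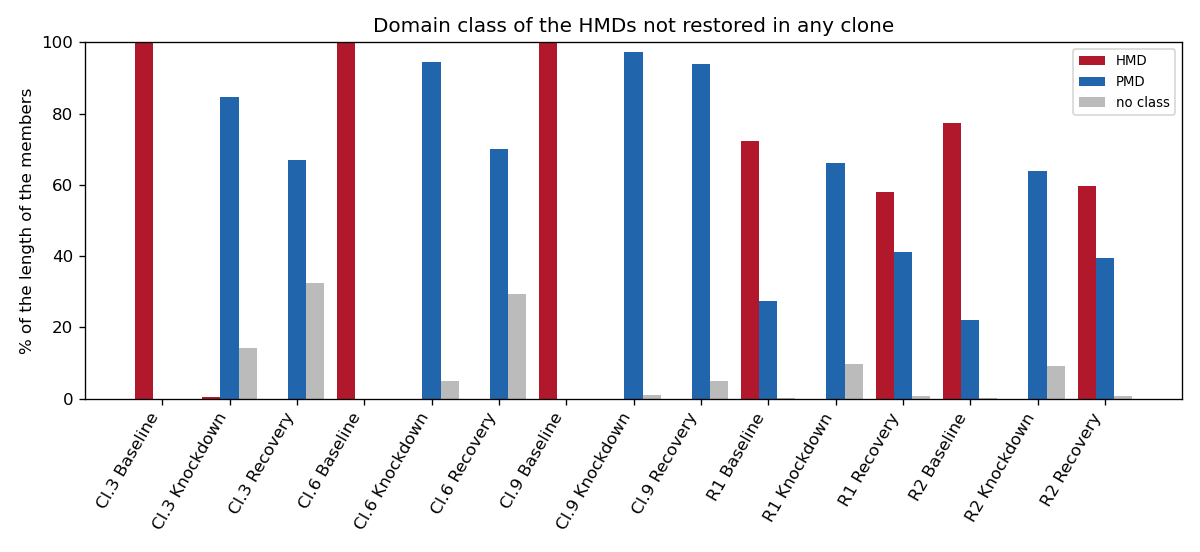
Share of the members' length (%; y axis) covered by HMDs (red), PMDs (blue) or no class (grey) in the domain list of each of the 15 libraries (x axis). LMRs and UMRs, which can lie inside PMDs, are left out, so the bars of a library need not sum to 100; HMD is 100.0% at Baseline and 0.0% at Recovery in the clones by the choice of members, and 58.1% and 59.6% at Recovery in R1 and R2.

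The 80% limit of the HMD definition was close for many members. In 4274 of the 5149 (83.0%) mC at Recovery was under 80% in all 3 clones, in 682 it was 80% or more in 1 clone and in 189 in a pair of clones. The last 4, named after their values were seen, had 80% or more in all 3 clones: chr5:112644458-112649553, chr7:67278026-67283745 in SPDYE21 (a gene of a family of near-identical copies), chr15:33077222-33083505 in FMN1 and chr17:46672534-46698275 in NSF. The NSF piece stood at 94.8%, 93.4% and 81.6% in Cl.3, Cl.6 and Cl.9. A value of 78 to 80% in at least 1 clone was held by 1471 members. The class is called over a whole domain, so a member could pass 80% on its own and still not be HMD. Depth was low in the NSF and SPDYE21 pieces. The fewest reads in a shDNMT1 library were 93 over 203 CpGs and 58 over 97 CpGs there. In the chr5 and FMN1 pieces they were 636 over 37 and 859 over 70. The authors set a coverage minimum per CpG and none was applied here, and the part of depth in these values was not tested.

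The change varied among members. Over the 4919 members with at least 50 CpGs, the median change from Baseline to Recovery was -10.2, -13.4 and -25.7 points in Cl.3, Cl.6 and Cl.9, with 5th to 95th percentiles of -14.5 to -6.47, -18.7 to -8.97 and -33.5 to -19.3. The change was negative in 4915, 4919 and 4919 of them. In R1 and R2 the median was -1.66 and -1.60 points, and 4508 (91.6%) and 4471 (90.9%) were below Baseline. Among pieces restored in all 3 clones, with the same CpG minimum, 99.9%, 100.0% and 100.0% were below Baseline in Cl.3, Cl.6 and Cl.9. In R1 and R2 93.4% and 94.0% of those were. Ending below Baseline was thus not particular to the members.

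As a description across pieces, Recovery mC in Cl.3 went with Recovery mC in Cl.6 (Pearson r = 0.62, Spearman rho = 0.578, 5145 members) and Cl.9 (r = 0.588, rho = 0.562), and Cl.6 with Cl.9 less closely (r = 0.473, rho = 0.447). Against R1 the value was r = 0.637 (rho = 0.658) for Cl.3, 0.462 (rho = 0.454) for Cl.6 and 0.528 (rho = 0.548) for Cl.9. The points share sequence, CpG density and the limits of the choice. Within each clone Recovery mC followed Knockdown mC (r = 0.841, 0.846 and 0.878 in Cl.3, Cl.6 and Cl.9), and these share no library.

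The bulk Recovery deficit was tested piece by piece in the 6 shDNMT1 libraries alone. With edgeR's quasi-likelihood test and Benjamini-Hochberg adjustment over 48586 pieces of all restoration patterns, 5145 members could be tested, and all of them were lower at Knockdown, as were 100.0% of all pieces tested. At Recovery 2058 members (40.0%) were lower at adjusted p under 0.05, against 53.4% of all pieces tested. The median change in log2 of methylated over unmethylated reads was -0.198 in the members and -0.247 over all pieces. The members' share lay below the background for these pieces of unequal length, whereas in 10 kb windows of fixed length it was near it, with 330 of 8905 member windows lower (3.71%) against 3.95% of all 146665 windows. When all 15 libraries were fitted together, no member was called at Recovery by edgeR, nor was any other piece. At an unadjusted p under 0.05 that fit gave 22 members lower (0.428%) and 1 higher, against 1.44% of all pieces lower, while limma on the 6 libraries called 1432 lower (27.8%), against 42.9% of all pieces.

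The 4 members not tested had fewer than 50 reads in a shDNMT1 library. They were chr2:109740252-109745926, chr10:133425329-133433351, chr16:85404606-85411123 in GSE1 and chr17:16826030-16832776, and are named after their values were seen. The 2 members higher at Recovery, against 0.00823% of all pieces tested, were also named afterwards. The piece chr4:3881009-3887828 had 81.0% at Baseline in both R1 and R2 and 84.9% and 83.2% at Recovery (adjusted p = 0.0478, edgeR), and chr17:20485204-20490785 had 91.3% and 92.6% against 98.3% and 96% (adjusted p = 0.0333, edgeR). Without the replicate block the edgeR adjusted p of the first was 0.05, so that it was no longer called, and that of the second 0.0411. With all 15 libraries in 1 edgeR fit neither was called (adjusted p = 0.764 for both). The fewest reads in a shDNMT1 library were 1011 over 128 CpGs for the first and 116 over 96 CpGs for the second. The part of depth in these calls was not tested. Neither of these 2 pieces overlapped a protein-coding gene. In the clones both ended below their Baseline.

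Among called members with at least 50 CpGs, the 5 largest bulk deficits at Recovery had mean changes of -9.77 to -6.14 points. The 7.86 kb piece chr1:149072218-149080072 in NBPF9, a gene with many near-identical copies whose reads may be shared among them, went from 94.4% to 89.3% in R1 and from 94.1% to 79.7% in R2 (edgeR adjusted p = 0.014). The pieces chr10:50681246-50687257, chr15:28850392-28855745 and chr5:118779448-118792564 overlapped no protein-coding gene. The chr10 piece went from 89.8% to 78.2% in R1 and from 88.3% to 83.9% in R2 (edgeR adjusted p = 0.0481), and was no longer called without the replicate block (0.055) or without the filter on low counts (0.0598). The chr15 piece went from 96.7% to 86.8% in R1 and from 92.5% to 87.9% in R2 (edgeR adjusted p = 0.000995). The chr5 piece went from 79.8% to 73.1% and from 78.9% to 73.3% (edgeR adjusted p = 0.000384). The fall was thus of like size in both populations in the chr5 piece, larger in R1 in the chr10 and chr15 pieces, and larger in R2 in NBPF9. Read depth was low in the NBPF9 and chr10 pieces. Both fell short of the stricter read minimum tried as an alternative, which the chr15 and chr5 pieces met. The part of depth in their falls, and in the difference between R1 and R2 there, was not tested.

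Sequence context of the members was close to that of restored HMDs. They had 10.3 CpGs per kb against 11.0 in restored HMDs, 43.7% GC against 41.2%, and 11.5% solo-WCGW CpGs against 10.8%. Over all autosomal CpGs the solo-WCGW share was 12.2%. Low-density CpGs, whose nearest neighbour lies 20 bp or more away, made up 55.6% of CpGs in the members and 51.4% in restored HMDs. Recovery mC followed a piece's CpG density weakly and with no common sign among the clones (over 5145 members r = 0.207 in Cl.3, -0.042 in Cl.6 and 0.0769 in Cl.9). In the bulk populations r was 0.195 (R1) and 0.203 (R2). From under 5 to over 15 CpGs per kb it moved from 75.7% to 77.5% in Cl.3, from 76.6% to 74.4% in Cl.6 and from 55.9% to 59.0% in Cl.9.

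The members lay nearer to PMDs than the 2 largest sets of other HMD pieces did. Their median distance to the nearest PMD of a clone's Baseline list was 4.7 kb, against 151 kb for restored HMDs and 97.1 kb for pieces restored in Cl.3 and Cl.6 only. A clone PMD lay within 10 kb of 55.1% of members and of 7.27% of restored pieces. In the R1 Baseline list, which the choice did not use, 46.8% of members touched a PMD against 0.615% of restored pieces, and in R2 40.5% against 0.365%. Regions are not replicates, so these shares are given without a test.

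Restored HMDs lay mostly in genes and the members did not. Protein-coding genes covered 39.9% of the members' length, 43.5% of the pieces restored in Cl.3 and Cl.6 only, and 83.6% of those restored in all 3 clones. Of the members, 2540 (49.3%) touched no protein-coding gene and 1826 (35.5%) lay wholly inside one. Exons covered 3.21% of their length, against 3.84% in the pieces restored in Cl.3 and Cl.6 only and 8.13% in restored HMDs. For lncRNA genes the shares were 22.3%, 20.4% and 9.97%. In these shares of length the members were thus close to the pieces restored in Cl.3 and Cl.6 only.

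Around the 1299 members of 20 kb or more, methylation dipped in the 1 kb just outside the border. In Cl.3 it was 57.4% there at Baseline, 86.0% in the first 1 kb inside and 83.4% between 2 and 3 kb outside. R1 showed 54.4%, 85.1% and 82.7%. Within the members the profile was level from 1 kb to 10 kb inside, between 86.1% and 86.9% in Cl.3 at Baseline and between 75.9% and 76.6% at Recovery. Over the members of all lengths, the flanking 1 kb was HMD for 68.8% to 71.2% of its length in the clones' Baseline lists. It was PMD for 5.25% to 13.2%, LMR for 11.4% to 15.8% and unmethylated region (UMR) for 5.89% to 6.01%. In R1 and R2 it was HMD for 54.5% and 57.7% and PMD for 29.7% and 25.7%. The borders were set by the clones' own calls, and an HMD ends where another class begins, so the dip in the clones follows in part from the choice of members.

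**Figure D4:**
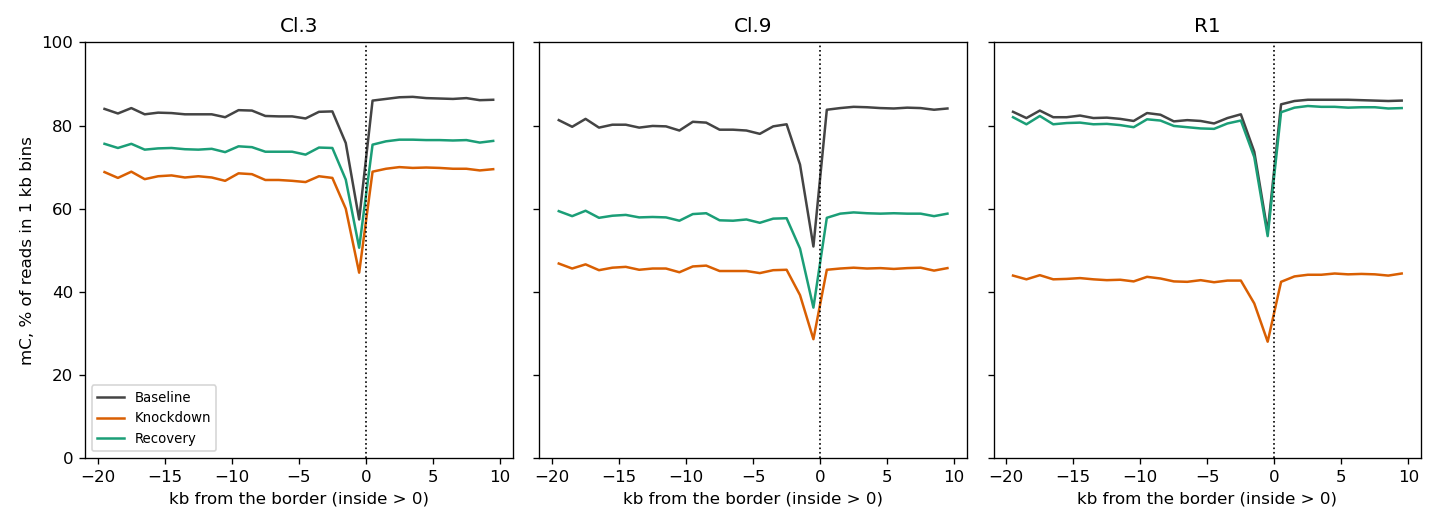
Methylation (% of reads in 1 kb bins; y axis) against distance from the border of the 1299 members of 20 kb or more (x axis, kb, inside positive) in Cl.3, Cl.9 and R1, with 1 line per stage. Baseline and Recovery nearly coincide in R1, and in Cl.9 the Recovery line lies at 57.8% to 59.1% inside the members, between Knockdown and Baseline.

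Single CpGs in the members differed by the distance to their nearest neighbour. CpGs with a neighbour at 2 to 9 bp regained 49.7%, 55.9% and 42.5% of their loss in Cl.3, Cl.6 and Cl.9. CpGs with a neighbour at 35 to 99 bp regained 37.7%, 42.0% and 31.0%, a smaller share in each of the 3 clones. The bulk populations regained 97.3% (R1) and 97.5% (R2) at the close neighbours and 95.2% and 95.4% at the distant ones. The same order held in restored HMDs, with 70.5%, 75.2% and 70.2% against 54.7%, 61.8% and 52.4% in the clones. Even the close-set CpGs of the members thus regained a smaller share than the distant CpGs of restored HMDs.

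**Figure D5:**
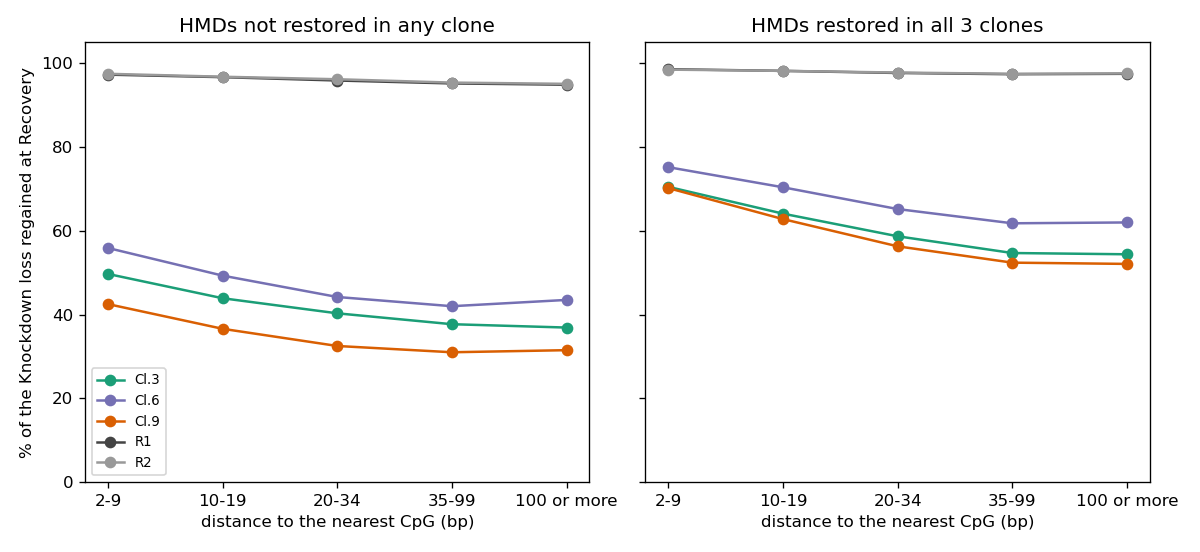
Share of the Knockdown loss that was regained at Recovery (%; y axis) against the distance of a CpG to its nearest CpG (x axis, bp) in the members (left) and in HMDs restored in all 3 clones (right), with 1 line per population. In the members the clones lie between 31.0% and 55.9% and the bulk populations between 94.9% and 97.5%.

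The flanking bases went with the level as well. In the members WCGW CpGs (A or T on both sides) stood at 63.5%, 62.0% and 43.2% at Recovery in Cl.3, Cl.6 and Cl.9, against 85.7%, 84% and 71.4% for SCGS CpGs (C or G on both sides). The solo-WCGW CpGs were lowest, with 71.9%, 74.7% and 68.5% at Baseline and 55.5%, 54.3% and 35.2% at Recovery. They regained 31.5%, 34.8% and 24.9% of the loss, against 93.4% and 93.7% in R1 and R2.

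The shortfall in the clones was spread over intermediate states more than over unmethylated sites. Of member CpGs with at least 10 reads, 81.6% in Cl.3 had mC of 80% or more at Baseline and 62.3% at Recovery. The share between 20 and 80% was 14.1% at Baseline and 32.1% at Recovery, and the share under 20% was 4.28% and 5.64%. In Cl.9 the share of 80% or more was 79.8% at Baseline and 31.5% at Recovery, and the share under 20% was 4.16% and 11.9%. In R1 the high share was 80% and 77.6%, and in R2 80.4% and 77.7%. Depth differed between these libraries and was greatest in Cl.9, and its part in the shares was not tested.

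The longest member, chr3:60643703-60891100 (247 kb, 1557 CpGs), lay wholly inside FHIT, a large gene over a common fragile site, and exons made up 0.0538% of it. Cl.3 went from 86.7% through 65.8% to 71.1% there, Cl.6 from 86.5% through 61.5% to 70.9% and Cl.9 from 87.9% through 45.7% to 57%. R1 went from 87.1% through 44.9% to 85.2% and R2 from 86.8% through 43.1% to 84.9%. The clones thus all ended below both bulk populations. Reads per CpG there were 0.561 to 0.652 times the library mean in the 15 libraries, against a median of 1.14 over the members with at least 50 CpGs. Read depth was thus low there in clones and bulk populations alike, and its part in the values was not tested.

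None of the other 9 longest members overlapped a protein-coding gene. They measured 137 to 225 kb with 4.51 to 7.51 CpGs per kb, and 4 of them lay on chromosome 4. The second longest, chr7:19223792-19448312, had 83.6%, 84.8% and 84% at Baseline in the clones. R1 had 70.2% and R2 70.7%, and PMDs covered 100.0% of it there at Baseline and Recovery. Its Recovery mC was 79.2% (Cl.3), 79.5% (Cl.6) and 67.5% (Cl.9), against 70.5% for R1 and 69.9% for R2. Only Cl.9 thus ended below the bulk populations in this piece. In another of these, chr12:19973799-20146543, Cl.6 (78.1%) lay above R1 (76.9%) and R2 (77.6%) at Recovery, whereas Cl.3 (76.8%) and Cl.9 (58.2%) lay below. Every clone ended below both bulk populations in the rest of the 10 longest members. The tenth, chr5:145321577-145459001, had 71%, 76.7% and 47.8% at Recovery (Cl.3, Cl.6, Cl.9) after 88.5%, 90.4% and 83.6%, and R1 and R2 went from 88.5% and 87.8% to 85.8% and 85.1%.

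The 10 protein-coding genes with the most base pairs in members were FHIT, GRID1, SNX29, THRB, ATP8B4, SHANK2, FHOD3, TTC6, ABTB3 and SAMD12. FHIT (chr3:59747277-61251459) held 373 kb of members in 5 pieces, 24.8% of the gene. GRID1, which encodes a glutamate receptor-like protein of synapses, held 308 kb in 8 pieces (40.2%). THRB (chr3:24117153-24495756), the gene of thyroid hormone receptor beta, was covered over 69.9% of its body, and ATP8B4, a phospholipid-transporting ATPase gene, over 73.7%.

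In these genes the member stretches behaved like the members as a whole. THRB went from 86.7% through 69.5% to 76.5% in Cl.3, from 89.6% through 65.8% to 77.4% in Cl.6 and from 86.7% through 50.2% to 65.4% in Cl.9. In R1 and R2 THRB went from 84.9% and 84.2% through 43.6% and 43.9% to 82.5% and 81.6%. SHANK2, which encodes a scaffold protein of the postsynaptic density, ended at 77.2%, 77.1% and 59.3% in the clones and at 87.2% and 87.3% in R1 and R2. Over the 10 genes Recovery mC ranged from 72.3% to 78.4% in Cl.3, from 70.9% to 78.4% in Cl.6 and from 54.5% to 65.4% in Cl.9, and from 81.1% to 87.3% in the bulk populations. In all 10 genes the 3 clones lay below both bulk populations at Recovery. The stretches measured are members, chosen on the clones' Recovery class, so this count and the likeness to all members follow in part from the choice.

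Gene families were read by how many genes had at least 50% of their body in members. This held for 456 of 19111 protein-coding genes (2.39%). Among keratins, which form the filaments of epithelial cells, it was 6 of 55, all on chromosome 12, among them KRT3 and KRT81 over their whole length. Among olfactory receptors it was 18 of 415 (4.34%), with OR10AC1 and OR2A5 on chromosome 7 lying wholly inside members. Of the gene length in shared Baseline HMDs, 4.13% fell in members over all protein-coding genes. This share was 29.4% in cadherins, 14.8% in olfactory receptors, 13.4% in keratins, 11.5% in potassium channels, 8.12% in glutamate receptors, 1.52% in zinc finger genes and 0.0% in protocadherins, and in the other 5 families it lay between 2.27% and 7.41%. Of the whole gene length 2.85% fell in members over all protein-coding genes. By that measure cadherins (3.09%) and olfactory receptors (2.96%) were near the background, and keratins had 10.6%.

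Among solute carriers 7 of 359 passed, with SLC26A7 covered over 62.4% of 189 kb. Zinc finger genes gave 2 of 503 (ZNF662 and ZNF280A), potassium channels 2 of 94 (KCNJ11 and KCNK4), cadherins 1 of 23 (CDH16) and interferon-response genes 1 of 26 (IFI27L2), all named after their values were seen. None passed among 87 histone genes, 80 cytosolic ribosomal protein genes, 63 protocadherins, 42 collagens and 27 glutamate receptors. Genes with any overlap with a member, those above included, were more common. They were 1968 of all protein-coding genes (10.3%), 14 collagens (33.3%), 7 cadherins (30.4%), 7 glutamate receptors (25.9%) and 24 potassium channels (25.5%), a count that long genes reach more easily. Interferon-response genes (15.4%), keratins (14.5%) and solute carriers (12.5%) lay nearer to the share of all genes. Below it lay olfactory receptors (6.02%), zinc finger genes (3.78%), histone genes (2.3%), cytosolic ribosomal protein genes (1.25%) and protocadherins (0.0%). Families were counted without a test, since neighbouring genes share domains.

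Promoters (1 kb upstream to 100 bp downstream of the gene's 5′ end) had at least 50% of their bases in members for 667 of 19111 protein-coding genes, and 631 of these could be tested. The members thus held 7.53 promoters per Mb, against 2.3 per Mb in restored HMDs (1138 promoters). Both counts leave out promoters that lie mainly outside HMDs. A density over all autosomes was not computed, so whether the members were rich in promoters cannot be read from these values. The member promoters' median mC was 85.5%, 67.7% and 74.5% at Baseline, Knockdown and Recovery in Cl.3, 86.6%, 61.0% and 71.8% in Cl.6, and 83.5%, 42.1% and 54.5% in Cl.9. In R1 it was 85.4%, 40.3% and 83.1%, and in R2 85.0%, 39.4% and 83.9%. They were poor in CpGs, with a median of 19, as were the promoters of restored HMDs with 24, against 41 over all promoters.

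At Knockdown 627 of the 631 member promoters were lower in the bulk populations (edgeR, adjusted p under 0.05), and none was higher. The background over all promoters tested was 88.5% lower and 0.0334% higher. Of the promoters in restored HMDs, 1057 of 1061 (99.6%) were lower, so the share was not particular to the members. At Baseline in R1 the median mC was 34.9% over all promoters and 85.4% in the member promoters. The 4 member promoters that did not pass, TMEM177, CYP8B1, LACTB2 and ENSG00000272921, began at 9.9% to 66.4% in R1 and R2 and are named after their values were seen. At Recovery none of the 631 was lower or higher at adjusted p under 0.05 by edgeR or by limma, and the background was 0.0% in each direction. At an unadjusted p under 0.05 edgeR gave 48 lower (7.61%) and 2 higher (0.317%), against 5.57% and 1.12% of all promoters. Among the 1061 promoters in restored HMDs it gave 102 lower and 8 higher. The smallest edgeR adjusted p among the member promoters was 0.529.

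The 5 member promoters with the largest mean deficit in the clones at Recovery, given as a description, were those of OR2A5, NRIP3, SSC5D, NAGK and FMO2. The OR2A5 promoter (chr7:144047948-144049047, 6 CpGs) went from 88.9% to 52% in Cl.3, from 83.7% to 55.8% in Cl.6 and from 86.8% to 40.4% in Cl.9 between Baseline and Recovery. In R1 it went from 89.5% through 38.5% to 83.5%, and in R2 from 90.3% through 29.5% to 89.4%. The SSC5D promoter (chr19:55487404-55488503, 34 CpGs) had 87.5%, 88.4% and 75.1% at Baseline and 62.3%, 50.6% and 31.2% at Recovery in the clones, and went from 76.1% to 75.4% in R1 and from 79.6% to 73.4% in R2.

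NRIP3, NAGK and FMO2 (a flavin-containing monooxygenase gene) had mean changes of -36.6, -31.6 and -31.2 points in the clones. In the bulk populations NRIP3 went from 82.8% to 74.8% in R1 and from 84.3% to 82.4% in R2, and FMO2 from 70.5% to 67.7% and from 67.9% to 66.7%. NAGK moved in opposite directions, from 89.8% to 85.0% in R1 and from 78% to 83.9% in R2. In each of these 5 promoters every clone ended below its Baseline, and no bulk change passed the test (edgeR adjusted p from 0.87 to 0.993).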

How the data were processed

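Whole-genome bisulfite libraries of HCT116 cells were aligned by the authors with Meth10X to the human genome (hg38). The deposited tables hold counts per CpG: methylated reads and all reads covering the site, without normalization, in 15 libraries. PMDs, LMRs and UMRs were called by the authors per library with MethylSeekR, and HMDs were the bedtools (version 2.25.0, per the labels) complement with a mean mC of at least 80%. An HMD call therefore depends on each library's other calls. How PCR duplicates were treated is not given in the sources used here.

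Here counts were summed over all CpGs of a region, without a coverage minimum. Genes and promoters came from GENCODE 44. Members, gene families, named-gene rules and tests were chosen with earlier results of these data known. Named were the 10 longest members, the 5 called members with the largest bulk deficit (1 of them is not reported here), the 10 genes with the most base pairs in members, the 5 member promoters with the largest clone deficit, and families by symbol. A promoter with a bulk Recovery change past the threshold would also have been named, but there was none.

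Methylated and unmethylated counts of pieces and promoters holding 5 CpGs or more, and 50 reads or more per shDNMT1 library, were tested in the 6 shDNMT1 libraries with edgeR 4.0.16 (quasi-likelihood, Benjamini-Hochberg, adjusted p under 0.05) with population as a block; limma 3.58.1, no block, all 15 libraries in 1 fit, other filters, other minimum lengths and 10 kb windows were alternatives. The edgeR step was tested on simulated data. Pooled values were compared with exact sign-flip permutation tests. R1 and R2 are 2 bulk populations, and whether they came from separate transductions is not given in the sources used here, so p-values measure the spread between these samples, which may be technical. Between R1 and R2 the mean chi-square per member was 1.22 at Baseline, 3.01 at Knockdown and 1.27 at Recovery, where counting noise alone gives about 1.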

Additional observations from a re-analysis of the deposited data

How the results depend on the processing

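The bulk differences between members and restored HMDs at Baseline, Knockdown and Recovery kept their direction in 14 of 14, 13 of 14 and 13 of 14 alternatives, and the difference in the clone left out of the choice in 10 of 11. Those that reversed did so on the log2 ratio scale, chosen after seeing the data: 1.09 at Knockdown, 0.0746 at Recovery and 0.138 in the clone left out. Without the replicate block 1948 members were lower at Recovery (37.9%, against 51.9% of all pieces) against 2058 with it (40.0%, against 53.4%), and 1 was higher against 2; leaving out the block moved no other count of member calls by over 1.5 times. Deviations of R1 and R2 were not correlated between stages (r from -0.0296 to 0.00778). Their spread was near counting noise at Baseline and Recovery (mean chi-square per member 1.22 and 1.27). These r values therefore cannot show whether the replicate numbers were paired across stages. With all 15 libraries in 1 edgeR fit 0 members were called at Recovery (22 lower at an unadjusted p under 0.05, 0.428% against 1.44% of all pieces), and 0 without either shDNMT1 replicate (5 and 3 lower unadjusted, 0.0972% and 0.0583% against 0.0659% and 0.0885% of all pieces). With 1 shDNMT1 library left per stage, the spread came from the shUHRF1 clones and the lone population was assumed to vary like them. In these fits no piece of any kind was called, and the cause was not tested. In 10 kb windows 330 of 8905 (3.71%, against 3.95% of all windows) were lower at Recovery and 8905 of 8905 at Knockdown. With at least 20 CpGs and 200 reads 286 of 289 member promoters were lower at Knockdown, fewer promoters being tested. The shares were 84.9% of all promoters so filtered and 99.3% of those in restored HMDs. Against pieces restored in Cl.3 and Cl.6 only, the bulk differences were -5.84, -0.768 and -0.38 points. Applying the rule without Cl.3, Cl.6 or Cl.9 gave 191, 160 and 108 Mb of members, and pieces of at least 2 or 10 kb 96.7 and 73.7 Mb. The chr10:50681246-50687257 piece lost its call without the block (adjusted p = 0.055, edgeR) and without the filter (0.0598); the named falls lost theirs when all 15 libraries were fitted. With 2 populations and 3 clones no exact test could reach the threshold.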

Other observations

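The members were spread unevenly over the chromosomes. They made up 9.97% of the shared Baseline HMD length on chromosome 20, 8.43% on chromosome 22 and 8.26% on chromosome 11, against 3.8% on chromosome 6 and 3.92% on chromosome 17. Their methylation at Recovery varied little among chromosomes, from 75.4% to 77.8% in Cl.3, from 72.8% to 76.4% in Cl.6 and from 56.7% to 60.9% in Cl.9. In R1 it ranged from 83.1% to 86.0%.

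Pieces that met the class rule but were under 5 kb numbered 20240. Cl.3 had 65.5% mC in them at Recovery, Cl.6 62.7% and Cl.9 48.8%, while R1 had 77.6% and R2 77.9%.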
